A study of Mus musculus with 21 samples.

Results

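The pre-B cell receptor and the molecules that carry its signal from the membrane were examined in B cell precursors at an early stage of leukemic transformation. The set comprised 9 genes, found by their symbols among the 24421 gene symbols of the expression tables: the surrogate light chain genes Igll1, Vpreb1, Vpreb2 and Vpreb3, the signaling chain genes Cd79a and Cd79b, the kinase genes Syk and Btk, and the adaptor gene Blnk. Primary precursors came from bone marrow of 53BP1-/- C57BL/6 mice, so that every condition, controls included, was without 53BP1, a factor of DNA repair. They were cultured with 10 ng/mL interleukin-7 (IL-7) and transduced with the retroviral vector MIGR1, either empty (EV, the control), encoding human BCR-ABL1, the fusion kinase of a subset of acute lymphoblastic leukemias, or encoding mouse C-MYC, a transcription factor. Poly(A) RNA was sequenced 7 to 9 days after transduction from 5000000 cells per library after removal of dead cells, with 2 libraries in each of the 3 conditions, described by the study as duplicate experiments. The animals' age is not given in the sources used here, and no sort for transduced cells before RNA extraction is described there, so each library is the RNA of a whole culture.

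The pre-B cell receptor is assembled when a precursor has made a productive immunoglobulin heavy chain but no light chain. Igll1 (lambda5) and a VpreB protein together take the place of the light chain, and the heterodimer of CD79A and CD79B, which has no enzymatic activity of its own, reaches into the cytoplasm with its immunoreceptor tyrosine-based activation motifs (ITAMs). Phosphorylated ITAMs recruit SYK, which phosphorylates the adaptor BLNK, and BLNK brings BTK and phospholipase C gamma 2 together. The receptor is known as the checkpoint at which pre-B cells expand and then stop cycling to rearrange their light chain genes, and BLNK and BTK are known as restraints on leukemia from such cells.

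The coding stretches in which CD79A and CD79B carry the ITAM are shown first, because these are the parts of the receptor on which its signaling depends. In the following lines, each 5′ to 3′ on the coding strand, the capitals mark the codons for both tyrosines of the motif and for the leucine or isoleucine that follows each of them. The Cd79a stretch lies on the + strand at chr7:24901296-24901469 and the Cd79b stretch on the - strand at chr11:106311867-106312012 (GRCm38, GENCODE annotation), each in 2 exons, so that the genomic span includes an intron.
Cd79a: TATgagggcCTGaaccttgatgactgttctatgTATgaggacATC
Cd79b: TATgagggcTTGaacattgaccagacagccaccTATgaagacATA

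Vpreb1 and Vpreb2 are near-identical copies, and their sequence bears on how far their counts can be told apart. Their coding sequences of 426 bases were identical at 417 positions (97.9%), with 9 differences. The following 90-base windows, positions 298 to 387 of each coding sequence, hold 5 of the 9 differences, in capitals, and are the windows of this length with the most. Vpreb1 is on the - strand at chr16:16868638-16868727 and Vpreb2 on the + strand at chr16:17980949-17981038, each within 1 exon.
Vpreb1: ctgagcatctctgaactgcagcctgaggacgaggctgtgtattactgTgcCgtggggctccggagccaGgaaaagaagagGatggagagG
Vpreb2: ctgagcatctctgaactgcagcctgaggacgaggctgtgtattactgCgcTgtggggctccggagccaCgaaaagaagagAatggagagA
Of all 50-base windows of the Vpreb2 transcript, 32.8% also occurred in the Vpreb1 transcript, and of all 100-base windows 14.7% did. Reads from such windows fit both genes, and how they were counted is not given in the sources used here, so the separate counts of Vpreb1 and Vpreb2 are uncertain.

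The promoters of 3 surrogate light chain genes are shown because these genes were called lower in C-MYC than in BCR-ABL1 (described below gene by gene). A further reason is that the transcription factors EBF1 and E2A are known to activate Igll1 and Vpreb1. Vpreb2 was called lower too, and its promoter is not shown. Each line gives the 250 bases before the RefSeq start site (assembly GRCm38.p6) in the direction of transcription, with capitals for matches on either strand to the EBF1 motif CCCNNGGG and the E2A motif CANCTG. Igll1 lies at chr16:16863986-16864235 on the - strand, Vpreb1 at chr16:16869256-16869505 on the - strand and Vpreb3 at chr10:75948050-75948299 on the + strand. The windows of Vpreb1 and Vpreb3 lie inside the GENCODE spans of these genes, given below, so the annotations differ in the outermost start.
Igll1: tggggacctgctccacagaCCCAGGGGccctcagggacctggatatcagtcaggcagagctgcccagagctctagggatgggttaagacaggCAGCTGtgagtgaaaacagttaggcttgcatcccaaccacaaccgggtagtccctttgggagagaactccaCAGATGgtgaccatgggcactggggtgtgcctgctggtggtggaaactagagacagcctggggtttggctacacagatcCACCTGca
Vpreb1: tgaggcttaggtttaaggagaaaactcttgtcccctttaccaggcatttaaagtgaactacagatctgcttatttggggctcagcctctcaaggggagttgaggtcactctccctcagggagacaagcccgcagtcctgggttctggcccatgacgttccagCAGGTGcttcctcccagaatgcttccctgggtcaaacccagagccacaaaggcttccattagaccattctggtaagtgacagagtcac
Vpreb3: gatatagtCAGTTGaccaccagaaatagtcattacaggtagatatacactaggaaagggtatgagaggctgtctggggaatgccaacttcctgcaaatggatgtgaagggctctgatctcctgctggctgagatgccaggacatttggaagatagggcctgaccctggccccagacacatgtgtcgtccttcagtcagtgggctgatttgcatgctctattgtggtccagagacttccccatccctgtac
Igll1 held 3 E2A matches and 1 EBF1 match in this window, and Vpreb1 and Vpreb3 each held 1 E2A match. Of the 8 members with an entry in the RefSeq promoter table, all but Cd79b, 7 had an E2A match in the 250 bases before a start site, as did 44.8% of all 32851 promoters. The EBF1 motif was present in 1 of the 8, against 11.8% of all promoters. Only exact matches to the letters of each motif were counted, so a site with other letters would be missed. A promoter without a match is not shown to lack a binding site. The MYC E-box CACGTG was found in 0 of the 8 members (6.02% of all promoters), the STAT5 motif TTCNNNGAA in 0 (7.02%), and the Ikaros motif TGGGAA in 2, Vpreb2 and Btk (21.6%). The windows of Vpreb1 and Vpreb2 shared an identical run of 91 bases, which began at position -94 from the start site of Vpreb1 and at -238 from that of Vpreb2.

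Depth was similar between libraries, from 20687092 to 24095955 counts on genes. Myc, which the C-MYC vector carries, had 159 ± 31.0 CPM (counts per 1000000 counts of the library, mean ± SD, n = 2) with EV, 346 ± 3.54 with BCR-ABL1 and 1490 ± 361 with C-MYC. CPM values are scaled by the trimmed mean of M values (TMM), which sets each library's total so that most genes keep their level. Markers of B cell precursors, 12 genes including Pax5, were detected in every library, with a summed level of 6280 to 6550 CPM with EV, 5140 to 5560 with BCR-ABL1 and 4530 to 5550 with C-MYC. Markers of cells outside the B lineage were highest in EV. The summed level of 12 myeloid markers was 1180 to 1360 CPM with EV, 147 to 162 with BCR-ABL1 and 201 to 340 with C-MYC. That of 12 T and NK cell markers was 212 to 290, 121 to 135 and 56.5 to 61.1 CPM. The 10 stromal and endothelial markers summed to 172 to 273 CPM with EV, 13.9 to 14.6 with BCR-ABL1 and 4.23 to 5.79 with C-MYC. The 10 erythroid and megakaryocyte markers summed to 37.7 to 47.5 CPM with EV, 7.77 to 9.10 with BCR-ABL1 and 11.0 to 13.4 with C-MYC, with the globin genes Hba-a1, Hba-a2, Hbb-bs and Hbb-bt at 0 in all libraries. The 9 markers of mature B and plasma cells in the tables summed to 393 to 465, 466 to 515 and 413 to 457 CPM. Of the 12 myeloid markers, 12 were lower in BCR-ABL1 than in EV and 12 in C-MYC than in EV at an adjusted p below 0.05, and of the 11 T and NK cell markers tested, 10 and 11 were lower (quasi-likelihood test of edgeR, Benjamini-Hochberg adjusted). In the comparison of BCR-ABL1 with C-MYC, 3 of the 12 myeloid markers were lower and 2 of the 11 T and NK cell markers higher in BCR-ABL1. The part of these other cells in the results against EV was not tested.

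The mean level of 8 of the 9 receptor genes, all but Btk, was lowest in C-MYC. Of the 9 members, 7 were lower in C-MYC than in EV at an adjusted p below 0.05 and 0 were higher, where 24.5% of all 12786 genes tested were lower and 18.6% were higher (quasi-likelihood test of edgeR, Benjamini-Hochberg adjusted). Against EV, BCR-ABL1 had 2 members lower, Cd79b and Syk, and 0 higher, with a background of 12.0% of genes lower and 5.08% higher. In the direct comparison, 7 members were higher in BCR-ABL1 than in C-MYC and 0 were lower, where 11.9% of genes tested were higher and 11.5% were lower. The median log2 fold change of the 9 members was 0.13 for BCR-ABL1 against EV, -0.80 for C-MYC against EV and 0.61 for BCR-ABL1 against C-MYC, beside medians over all genes tested of 0.001, -0.0759 and 0. The comparisons with EV share the EV libraries, and the comparisons with C-MYC share the C-MYC libraries, so these counts are not independent of each other. Of the 12 B precursor markers, 10 were lower in C-MYC than in EV and 8 were higher in BCR-ABL1 than in C-MYC by the same test, and their part in the members' counts was not tested. Libraries of C-MYC and EV did not overlap for 8 of the 9 members, and those of BCR-ABL1 and C-MYC for 9. Of all genes tested, 70.5% and 69.9% did not overlap in either direction. Those of BCR-ABL1 and EV did not overlap for 4 of the 9 members, beside 58.8% of all genes tested. In whole cultures, fewer cells that express the receptor and less of its RNA per cell cannot be told apart. CPM are also shares of a library and do not give the amount of RNA per cell. Together the 9 genes took 0.666% and 0.578% of all counts in the EV libraries, 0.618% and 0.562% with BCR-ABL1, and 0.357% and 0.310% with C-MYC.

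**Figure D1:**
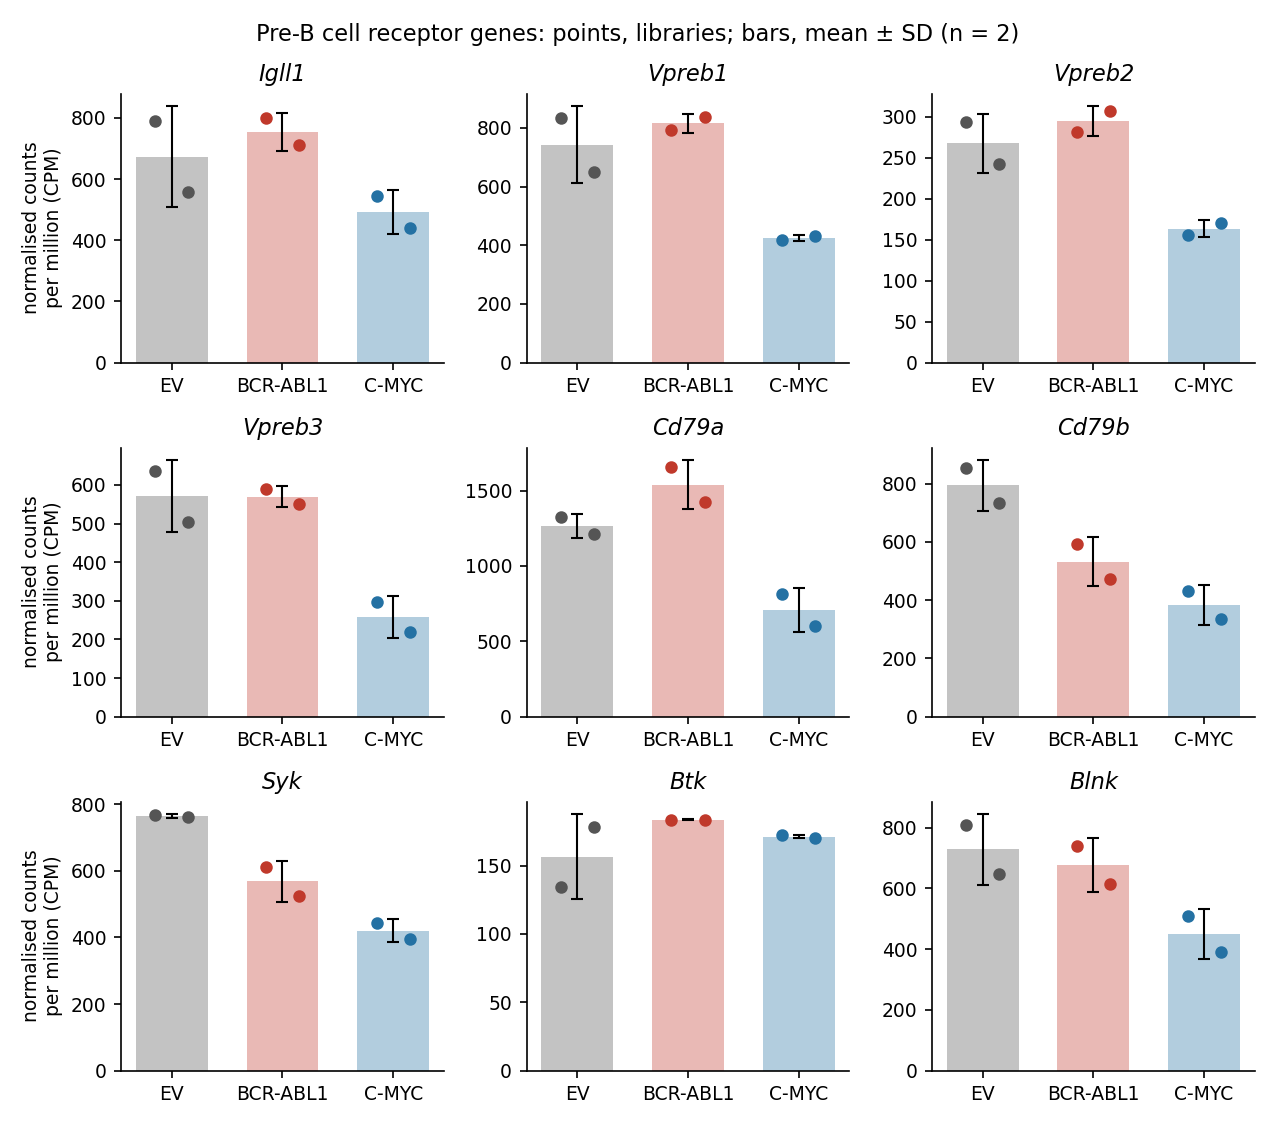
TMM-scaled CPM (vertical axis, from 0) of the 9 receptor and signaling genes in EV, BCR-ABL1 and C-MYC. Points are the 2 libraries of a condition, bars their mean and error bars the SD. The C-MYC libraries lie below both other conditions for every gene except Btk. Over all genes tested, 70.5% did not overlap between C-MYC and EV and 69.9% between BCR-ABL1 and C-MYC, in either direction. The share of genes with C-MYC below both was not computed.

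Vpreb1 (chr16:16868403-16870843, - strand) encodes the V-like part of the surrogate light chain. It had 835 and 651 CPM with EV, 792 and 838 with BCR-ABL1, and 419 and 433 with C-MYC. The C-MYC libraries were the lowest of the 6 and agreed closely with each other, whereas EV and BCR-ABL1 overlapped. C-MYC had 57.3% of the EV level (log2 fold change -0.80 ± 0.13 SE, adjusted p = 0.00225) and BCR-ABL1 had 1.91-fold the C-MYC level (0.94 ± 0.13, adjusted p = 0.00329; edgeR for both). Between BCR-ABL1 and EV the log2 fold change was 0.13 ± 0.13 (edgeR adjusted p = 0.529). The annotated span of Vpreb1 overlaps Top3b on the opposite strand, and whether the counting used strand is not given in the sources used here.

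Vpreb2 (chr16:17980428-17981273, + strand) encodes the other copy of the VpreB protein and lies 1109584 bases from Vpreb1. Its libraries had 293 and 242 CPM with EV, 282 and 308 with BCR-ABL1, and 156 and 171 with C-MYC, an arrangement like that of Vpreb1 at a lower level. It had a log2 fold change of -0.71 ± 0.12 in C-MYC against EV (edgeR adjusted p = 0.00326), 0.14 ± 0.12 in BCR-ABL1 against EV (0.498) and 0.85 ± 0.12 in BCR-ABL1 against C-MYC (0.00407). The ratio of Vpreb1 to Vpreb2 counts was 2.77 with EV, 2.77 with BCR-ABL1 and 2.61 with C-MYC, as the mean on the log2 scale of 2 libraries.

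Vpreb3 (chr10:75943057-75949657, + strand) encodes a VpreB relative that is known to stay inside the cell and to bind immunoglobulin chains during their assembly. It had 637 and 505 CPM with EV, 590 and 550 with BCR-ABL1, and 297 and 220 with C-MYC. Its decrease in C-MYC, to 45.3% of EV, was the largest of the 9 members in size, by less than its SE over that of Cd79b (log2 fold change -1.14 ± 0.17, edgeR adjusted p = 0.00160), and its level in BCR-ABL1 was 2.20-fold that in C-MYC (1.14 ± 0.17, adjusted p = 0.00405). Both BCR-ABL1 libraries lay between the EV libraries, and the log2 fold change of -0.0022 ± 0.17 between these conditions did not pass the test (edgeR adjusted p = 0.995). Its span overlaps the annotated gene Gm16221 on the opposite strand.

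Igll1 (chr16:16860671-16863985, - strand) encodes lambda5, the constant-region-like part of the surrogate light chain, and lies 4417 bases from Vpreb1. Its libraries had 790 and 557 CPM with EV, 799 and 710 with BCR-ABL1, and 545 and 441 with C-MYC. The EV libraries were far apart, with the lower one close to the higher C-MYC library. The log2 fold change of -0.45 ± 0.18 in C-MYC against EV did not pass the test over all genes (edgeR adjusted p = 0.0750). It was -0.17 without EV replicate 1, -0.68 without EV replicate 2, -0.60 without C-MYC replicate 1 and -0.30 without C-MYC replicate 2. With all libraries it passed in an edgeR fit with the replicate number as a block (-0.44, adjusted p = 0.00635). It also passed in edgeR without the low-count filter (adjusted p = 0.0341), but not with DESeq2's test (adjusted p = 0.103). BCR-ABL1 had 1.53-fold the C-MYC level (0.61 ± 0.18, edgeR adjusted p = 0.0424), a call that was lost without any 1 of the BCR-ABL1 or C-MYC libraries: the adjusted p was then 0.231 and 0.104 without BCR-ABL1 replicates 1 and 2, and 0.0743 and 0.216 without C-MYC replicates 1 and 2. With all libraries it was also lost with DESeq2's size factors in edgeR (0.0504) and with limma on log2(FPKM + 1) (0.0505, or 0.116 without the FPKM filter). BCR-ABL1 and EV overlapped (0.16 ± 0.18, edgeR adjusted p = 0.582).

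Cd79a (chr7:24897381-24902197, + strand) had the most counts of the 9 genes. It had 1322 and 1209 CPM with EV, 1653 and 1424 with BCR-ABL1, and 812 and 603 with C-MYC. Every BCR-ABL1 library was above every EV library, and the C-MYC libraries were the lowest. The level in C-MYC was 55.9% of EV (log2 fold change -0.84 ± 0.15, edgeR adjusted p = 0.00376), and that in BCR-ABL1 was 2.17-fold C-MYC (1.12 ± 0.15, adjusted p = 0.00324). The difference between BCR-ABL1 and EV, 0.28 ± 0.15, did not pass the test (edgeR adjusted p = 0.252).

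Cd79b (chr11:106311341-106314762, - strand), which encodes the partner chain, was arranged differently. It had 855 and 733 CPM with EV, 591 and 473 with BCR-ABL1, and 432 and 336 with C-MYC, so that both oncogene conditions were below EV. It fell to 48.3% of EV in C-MYC (log2 fold change -1.05 ± 0.16, edgeR adjusted p = 0.00196) and to 67.0% in BCR-ABL1 (-0.58 ± 0.16, adjusted p = 0.0457). The latter call was lost without EV replicate 1 (adjusted p = 0.101), BCR-ABL1 replicate 1 (0.0792) or BCR-ABL1 replicate 2 (0.302). BCR-ABL1 exceeded C-MYC by 0.47 ± 0.16, which did not pass (edgeR adjusted p = 0.0699). This difference passed with the replicate number as a block (0.47, edgeR adjusted p = 0.00365). It also passed in edgeR without the low-count filter (adjusted p = 0.0269) and with only the 4 libraries compared (0.0368). It was 0.30 without BCR-ABL1 replicate 1, 0.62 without BCR-ABL1 replicate 2, 0.66 without C-MYC replicate 1 and 0.30 without C-MYC replicate 2. Without either EV replicate it stayed at 0.47.

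The chains of the signaling heterodimer stood in different proportion to each other. Within a library, the ratio of Cd79a to Cd79b counts was 1.55 and 1.65 with EV, 2.80 and 3.01 with BCR-ABL1, and 1.88 and 1.79 with C-MYC. The ratio in BCR-ABL1 was above that of the other 4 libraries, by 0.86 on the log2 scale over EV and 0.66 over C-MYC, while the SD between replicates was at most 0.0748. FPKM values gave 1.69 and 1.71, 2.99 and 3.14, and 2.00 and 1.82. An exact permutation test over all 90 assignments of the 6 libraries to the conditions gave p = 0.0667, the smallest p this design allows, and 0.200 after adjustment over the 6 ratios tested. The ratios were chosen after the data had been seen, and they are ratios of RNA, not of protein.

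Syk (chr13:52583173-52648792, + strand) encodes the kinase that docks on phosphorylated ITAMs and is also expressed in myeloid cells. It had 768 and 761 CPM with EV, 611 and 525 with BCR-ABL1, and 444 and 395 with C-MYC. The conditions did not overlap and formed the order EV, BCR-ABL1, C-MYC. C-MYC had 54.9% of the EV level (log2 fold change -0.87 ± 0.11, edgeR adjusted p = 0.000975), BCR-ABL1 had 74.3% of the EV level (-0.43 ± 0.11, adjusted p = 0.0362), and BCR-ABL1 exceeded C-MYC 1.35-fold (0.44 ± 0.11, adjusted p = 0.0275). The difference between BCR-ABL1 and EV passed only with all of their libraries, with an adjusted p of 0.0579 and 0.0510 without EV replicates 1 and 2 and of 0.0900 and 0.302 without BCR-ABL1 replicates 1 and 2. That between BCR-ABL1 and C-MYC was lost in the same way (0.255 and 0.0617 without BCR-ABL1 replicates 1 and 2, 0.0549 and 0.142 without C-MYC replicates 1 and 2). The summed myeloid markers, given above, were also highest in EV, and their part in the Syk difference was not tested.

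Blnk (chr19:40928927-40994535, - strand) encodes the adaptor that SYK phosphorylates. Its libraries had 810 and 646 CPM with EV, 741 and 614 with BCR-ABL1, and 508 and 391 with C-MYC. EV and BCR-ABL1 overlapped, and the C-MYC libraries were below both. C-MYC had 61.8% of the EV level (log2 fold change -0.69 ± 0.17, edgeR adjusted p = 0.0128), a call lost without C-MYC replicate 2 (0.0794). BCR-ABL1 had 1.51-fold the C-MYC level (0.59 ± 0.17, edgeR adjusted p = 0.0396), lost without BCR-ABL1 replicate 1 (0.259), BCR-ABL1 replicate 2 (0.0731) or C-MYC replicate 2 (0.201).

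Btk (chrX:134542336-134583570, - strand) encodes a TEC family kinase that activates phospholipase C gamma 2, and it was the only member whose mean in C-MYC was not below that in EV. It had 135 and 178 CPM with EV, 183 and 184 with BCR-ABL1, and 172 and 170 with C-MYC. The range of the EV libraries included both C-MYC libraries. Its log2 fold changes of 0.23 ± 0.14 for BCR-ABL1 against EV (edgeR adjusted p = 0.313), 0.13 ± 0.14 for C-MYC against EV (0.489) and 0.10 ± 0.14 for BCR-ABL1 against C-MYC (0.647) did not pass. The EV libraries set the comparisons against them: without EV replicate 2, Btk was higher in BCR-ABL1 (0.45, edgeR adjusted p = 0.0220) and in C-MYC (0.35, adjusted p = 0.0290), and without EV replicate 1 the C-MYC value was -0.06 (adjusted p = 0.697). The span overlaps the annotated gene Gm15154 on the opposite strand.

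**Figure D2:**
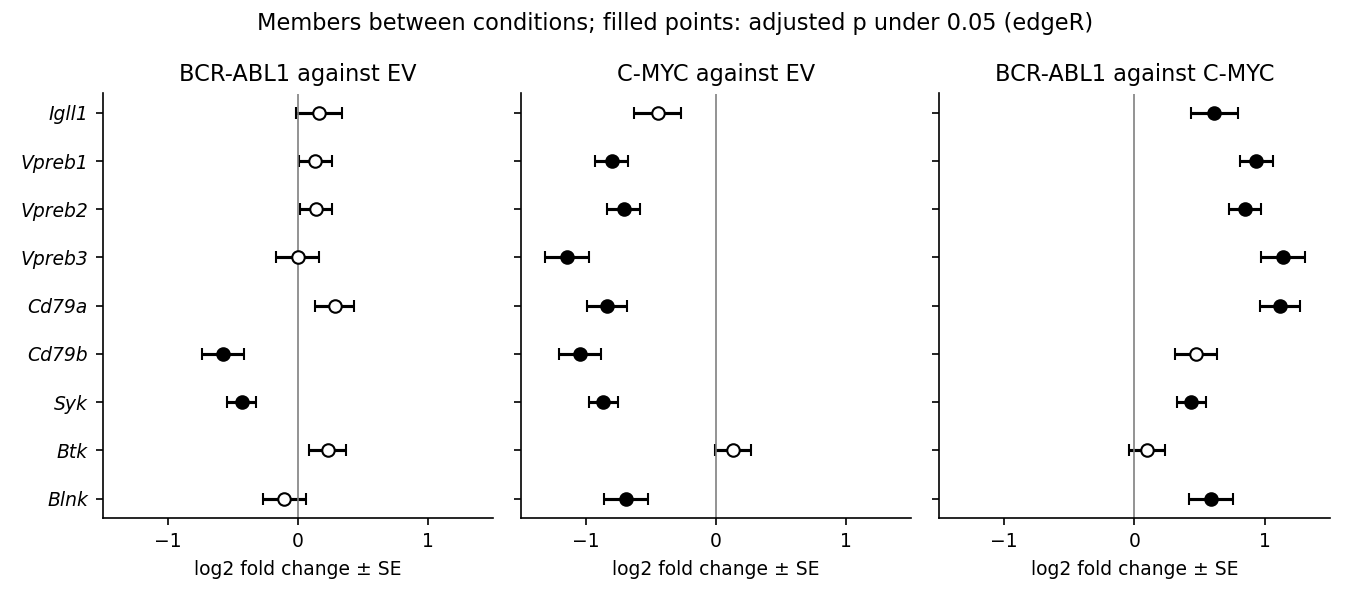
Log2 fold changes (horizontal axis) of the 9 genes in the 3 comparisons, with the standard error as bars; filled points passed an adjusted p of 0.05 in edgeR's quasi-likelihood test. In C-MYC against EV, 7 points are filled and negative, and in BCR-ABL1 against C-MYC 7 are filled and positive.

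Of the other ratios between members, Syk to Btk was 4.94 with EV, 3.09 with BCR-ABL1 and 2.45 with C-MYC, with no overlap between the conditions (exact permutation p = 0.0667, adjusted p = 0.200). For Vpreb1 to Vpreb3, Igll1 to Vpreb1 and Syk to Blnk the exact permutation p was 0.267, and it was 0.333 for Vpreb1 to Vpreb2. The C-MYC libraries differed from each other in the ratio of Vpreb1 to Vpreb3, with log2 values of 0.50 and 0.98, and in that of Igll1 to Vpreb1, with 0.38 and 0.03.

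**Figure D3:**
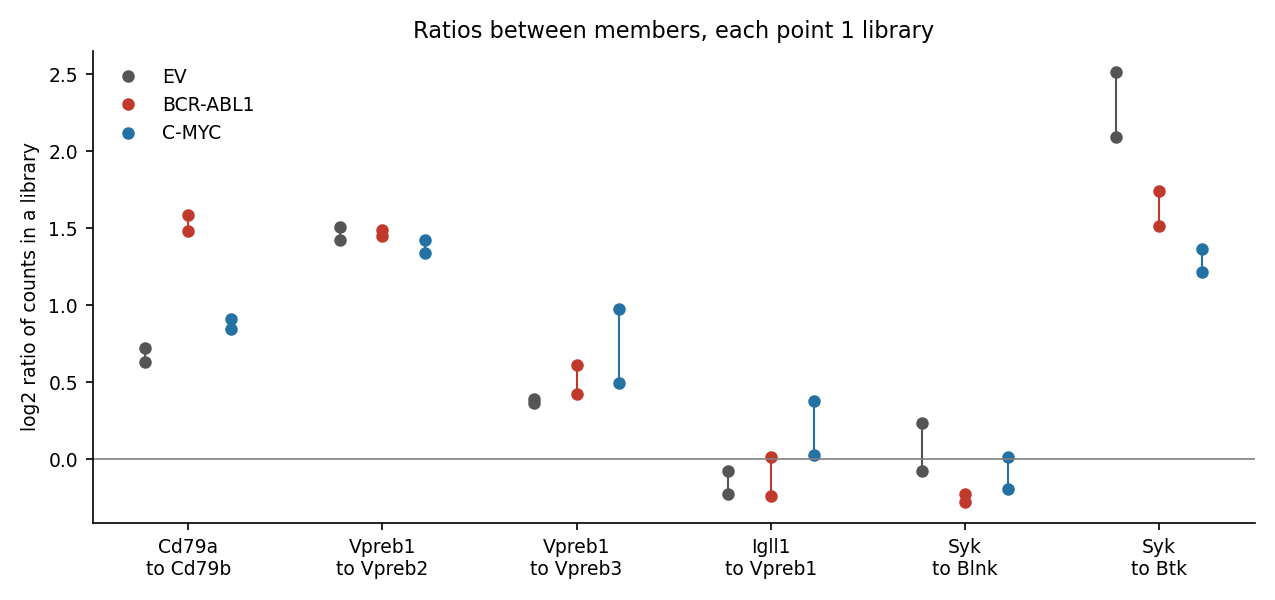
Log2 ratio of the raw counts of 2 members within a library (vertical axis) for 6 pairs of genes (horizontal axis), colored by condition, with a line joining the 2 libraries of a condition. For Cd79a to Cd79b the BCR-ABL1 libraries, at 1.48 and 1.59, lie above all others, and Syk to Btk is highest in EV.

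Levels of different genes were compared as CPM per kilobase of the longest coding transcript. On this scale Vpreb1 was the highest member in EV (970 ± 170, SD, n = 2), followed by Cd79a (869 ± 54.8), Vpreb3 (783 ± 128) and Igll1 (774 ± 190), and these neighbors overlapped in their libraries. Cd79b (555 ± 60.4) came next, without overlap, then Vpreb2 (353 ± 47.7) and Blnk (347 ± 55.2), which overlapped, Syk (143 ± 0.923) and Btk (61.6 ± 12.2). Ranked by this level among 11786 genes with a length, Vpreb1 was number 42 in EV and Btk number 1163.

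The order changed with the oncogene for a few members. In BCR-ABL1, Vpreb1 (1064 ± 43.1) and Cd79a (1056 ± 111) overlapped at the top, and Cd79b (372 ± 58.3) was on a level with Vpreb2 (388 ± 24.1) and Blnk (323 ± 42.8). In C-MYC, Igll1 (567 ± 84.0), Vpreb1 (556 ± 13.4) and Cd79a (485 ± 101) formed the top with overlap between neighbors, and Syk (78.3 ± 6.46) was just above Btk (67.4 ± 0.501). Vpreb1 was then number 117 of the 11786 genes, Cd79a number 129 and Igll1 number 114. The FPKM values of some members did not follow their counts: the ratio of FPKM to CPM per kilobase was 0.057 for Vpreb3, 0.237 for Vpreb2 and 0.315 for Igll1, but 3.61 for Blnk, beside a median of 1.04 over all genes, so FPKM was not used to order genes.

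**Figure D4:**
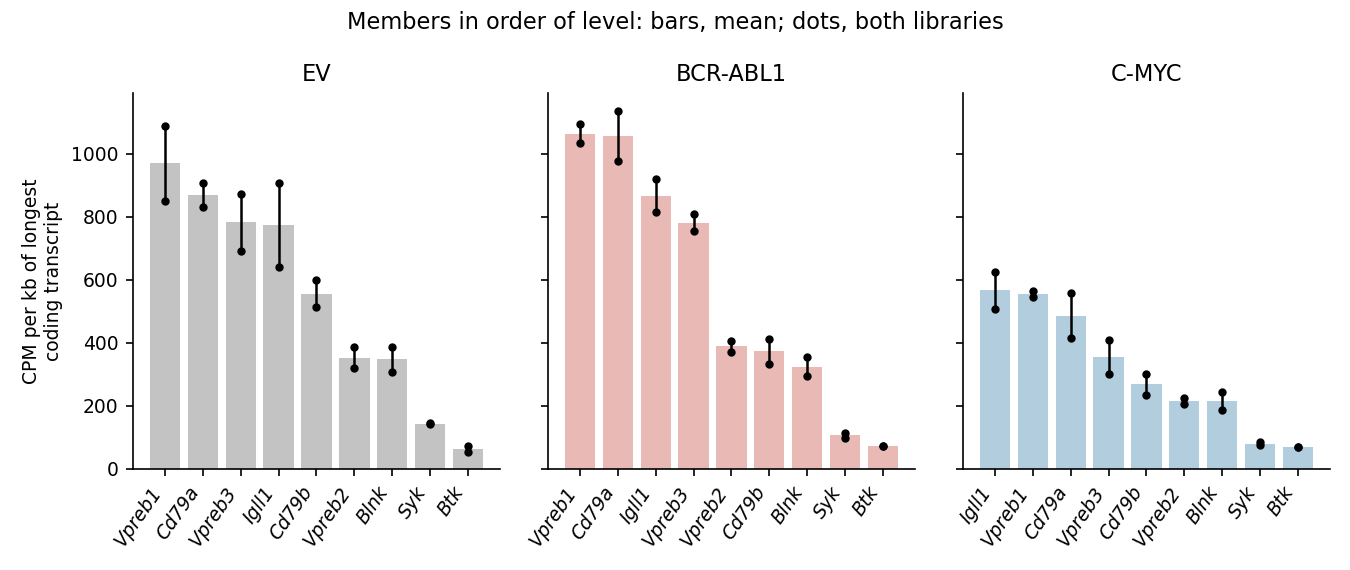
Level of the 9 genes as CPM per kilobase of longest coding transcript (vertical axis, from 0), ordered within EV, BCR-ABL1 and C-MYC. Bars are means and dots joined by a line are the 2 libraries; Vpreb1 and Cd79a lead in EV and BCR-ABL1, and all members but Btk are lowest in C-MYC.

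Of 81 other genes of the pathway, 75 were in the tables and tested; the 6 immunoglobulin constant genes, the heavy chain partner of the surrogate light chain among them, are not analysed here. In C-MYC against EV, 45 of the 75 were lower and 1 was higher, with a median log2 fold change of -0.51. In BCR-ABL1 against EV 16 were lower and 4 higher (median -0.12), and in BCR-ABL1 against C-MYC 35 were higher and 4 lower (median 0.43). Against the backgrounds given above, the share lower in C-MYC than in EV and the share higher in BCR-ABL1 than in C-MYC exceeded those of all genes.

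Receptors and phosphatases that inhibit the pathway were the largest of the 7 pathway groups, with 18 genes. In C-MYC against EV 14 of 18 inhibitors were lower and 0 higher, and of the 7 other kinases 6 were lower. Of all genes tested, 24.5% were lower and 18.6% higher. Siglecg, a sialic acid-binding inhibitory receptor, had 164 ± 19.7 CPM with EV, 93.0 ± 4.17 with BCR-ABL1 and 41.5 ± 4.79 with C-MYC (C-MYC against EV -1.99 ± 0.14, edgeR adjusted p = 0.000177). Pecam1 had 126 ± 27.8, 61.3 ± 7.68 and 27.7 ± 3.86 CPM (-2.19 ± 0.19, edgeR adjusted p = 0.000329), and Fcgr2b, the inhibitory Fc receptor of B cells, had 91.6 ± 26.8, 60.0 ± 9.81 and 24.6 ± 5.51 CPM (-1.89 ± 0.25, edgeR adjusted p = 0.00100). Ptpn22, a phosphatase, fell likewise in C-MYC (-2.12 ± 0.30, edgeR adjusted p = 0.00147). The summed markers of myeloid cells and of stromal and endothelial cells, given above, were also highest in EV. Their part in the decreases of these inhibitors was not tested.

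Cd72 and Cd22 had their lowest mean level in BCR-ABL1. Cd72 had 90.1 ± 10.7 CPM in EV, 72.3 ± 2.79 in C-MYC and 32.1 ± 1.90 in BCR-ABL1 (BCR-ABL1 against C-MYC -1.17 ± 0.13, edgeR adjusted p = 0.00163). Cd22 had 35.1 ± 3.34, 25.5 ± 1.32 and 13.5 ± 1.59 CPM in the same order (-0.91 ± 0.16, edgeR adjusted p = 0.00690). In BCR-ABL1 against C-MYC, 11 of the 18 inhibitors were higher and 3 lower, the third being Lilrb4a. Of all genes tested, 11.9% were higher and 11.5% lower, so the share of inhibitors lower was close to that of all genes. Sla2, an adaptor that damps antigen receptor signaling, was higher in BCR-ABL1 than in C-MYC (1.48 ± 0.42, edgeR adjusted p = 0.0383).

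Among adaptors and upstream kinases, Bank1, a B cell scaffold protein, was the gene with the largest difference of the list between the oncogenes. It had 6.73 ± 1.65 CPM with EV, 22.9 ± 1.31 with BCR-ABL1 and 2.56 ± 0.633 with C-MYC (BCR-ABL1 against C-MYC 3.16 ± 0.27, edgeR adjusted p = 0.000619). Fyn, a SRC family kinase, had 116 ± 12.7, 173 ± 4.31 and 72.1 ± 6.00 CPM (1.27 ± 0.12, edgeR adjusted p = 0.000955). The RAS activators Rasgrp1 and Rasgrp3 were also higher in BCR-ABL1 than in C-MYC, by 1.59 ± 0.25 and 1.88 ± 0.44 (edgeR adjusted p = 0.00493 and 0.0201).

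Several pathway genes with large decreases against EV are known from T or myeloid cells. Zap70, a kinase of T cells, had 11.4 ± 2.46 CPM with EV, 1.52 ± 0.0778 with BCR-ABL1 and 2.25 ± 0.519 with C-MYC. Lilrb4a, a receptor of myeloid cells, fell by 2.95 on the log2 scale in BCR-ABL1 (edgeR adjusted p = 0.000396) and by 2.15 in C-MYC (0.000411). Lat2, an adaptor of myeloid cells and B cells, and Nfatc2, a calcium-regulated transcription factor, were lower in both as well (BCR-ABL1 against EV -1.83 ± 0.28 and -1.91 ± 0.37, edgeR adjusted p = 0.00474 and 0.0126). The summed T, NK and myeloid markers were highest in EV too, as given above, and their part in these decreases was not tested.

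Some abundant genes next to the receptor passed in no comparison. Plcg2, the phospholipase that BTK activates, had 402 ± 52.0 CPM with EV, 399 ± 14.3 with BCR-ABL1 and 396 ± 11.1 with C-MYC. Csk, the kinase that restrains SRC family kinases, had 496 ± 35.1, 459 ± 14.5 and 469 ± 93.5 CPM. Rac1 (371 to 446 CPM by condition) and Nfatc3 (332 to 385 CPM) were the others named by the same rule.

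**Figure D5:**
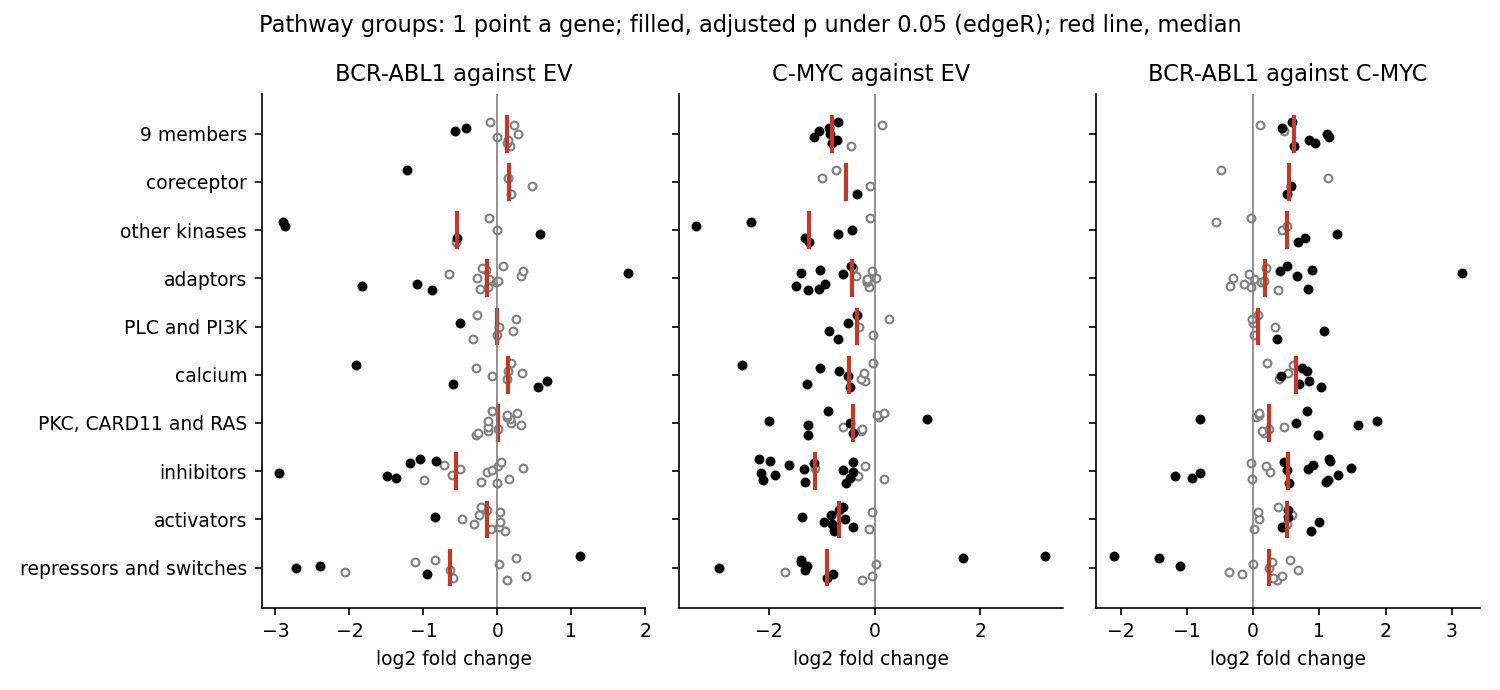
Log2 fold changes (horizontal axis) of the 9 members, of 75 other pathway genes in 7 groups and of 24 regulators in 2 groups (rows), 1 point a gene, in the 3 comparisons; filled points passed an adjusted p of 0.05 in edgeR and red lines are medians. The inhibitors have the lowest median of the 7 pathway groups in BCR-ABL1 against EV (-0.56), and the other kinases have it in C-MYC against EV (-1.24).

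A list of 24 transcriptional regulators was chosen for textbook links to the receptor genes. Of these, 16 were lower and 2 higher in C-MYC than in EV, and 4 lower and 1 higher in BCR-ABL1 than in EV. In BCR-ABL1 against C-MYC, 5 were higher and 3 lower. The backgrounds over all genes were 24.5% lower and 18.6% higher, 12.0% lower and 5.08% higher, and 11.9% higher and 11.5% lower in the same order, close to the shares of regulators lower or higher in BCR-ABL1 than in EV and lower in BCR-ABL1 than in C-MYC. Myc, carried by the C-MYC vector, is one of the 2 higher in C-MYC than in EV, the one higher in BCR-ABL1 than in EV and one of the 3 lower in BCR-ABL1 than in C-MYC. With the replicate number as a block, 11 regulators were called in BCR-ABL1 against EV and 13 in BCR-ABL1 against C-MYC, in place of 5 and 8. Ebf1, the factor that activates Igll1, Vpreb1 and Cd79a with E2A, had 551 ± 33.7 CPM with EV, 592 ± 39.2 with BCR-ABL1 and 322 ± 47.9 with C-MYC (BCR-ABL1 against C-MYC 0.88 ± 0.13, edgeR adjusted p = 0.00380). Foxo1 had 365 ± 112, 376 ± 77.1 and 188 ± 25.2 CPM (1.00 ± 0.23, edgeR adjusted p = 0.0181), and Runx1 183 ± 22.1, 167 ± 11.2 and 115 ± 13.6 CPM (0.53 ± 0.13, edgeR adjusted p = 0.0260). In C-MYC against EV these 3 activators were lower as well (-0.77, -0.96 and -0.67, edgeR adjusted p = 0.00241, 0.0115 and 0.00580).

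Tcf3, which encodes E2A, passed in no comparison, with 704 ± 43.9 CPM with EV, 663 ± 33.8 with BCR-ABL1 and 656 ± 84.2 with C-MYC, and its relative Tcf12 was 0.43 ± 0.11 higher in BCR-ABL1 than in C-MYC (edgeR adjusted p = 0.0255). Spib, an ETS family factor, fell by 0.84 in BCR-ABL1 and by 1.37 in C-MYC against EV (edgeR adjusted p = 0.00498 and 0.000385). Ets1, Ikzf1 and Irf4 were abundant, at 506 to 534, 366 to 473 and 250 to 339 CPM by condition, and passed in no comparison.

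In the regulator group of repressors and switches, Id2, an inhibitor of E2A, had 31.2 ± 0.431 CPM with EV. It had 5.90 ± 0.766 CPM with BCR-ABL1 and 12.7 ± 6.02 with C-MYC. Id1 fell in both oncogene conditions from 2.67 ± 1.79 CPM with EV (edgeR adjusted p = 0.0223 and 0.00777). It had 0.409 ± 0.226 CPM with BCR-ABL1 and 0.341 ± 0.0264 with C-MYC, low levels, and its EV libraries were far apart. The summed myeloid, T and NK markers, given above, were also highest in EV. Their part in the Id1 and Id2 differences was not tested. Bach2 was lower in C-MYC than in EV (-1.31 ± 0.21, edgeR adjusted p = 0.00219), as were Klf2 (-1.40 ± 0.35, 0.0150) and Egr1 (-1.40 ± 0.40, 0.0236). Irf8 had 565 ± 188 CPM with EV, 292 ± 7.07 with BCR-ABL1 and 329 ± 49.2 with C-MYC, and is known from myeloid cells too. Gfi1, a repressor, was higher in C-MYC than in EV (1.67 ± 0.38, edgeR adjusted p = 0.00988).

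The pattern of 3 members over the 6 libraries was compared with that of genes having at least 10 CPM on average and an SD of at least 0.5 on the log2 scale. This is a description over libraries that share their conditions. Most like Cd79a among 1296 such genes were Elk3, Irak3, Efhd1, Hip1r and Arid5a (Pearson's r of log2 CPM from 0.991 to 0.997). Most like Syk among 1297 were Btg2, Dennd4b, Iqsec2, Ly6d and Lynx1 (0.992 to 0.997), and most like Igll1 were Bmp2k, Eif2ak3, Dpy19l3, Cdh24 and Zc3h12d (0.972 to 0.990). Among the members themselves, r was 0.996 for Vpreb1 and Vpreb2, which may share reads, 0.985 for Cd79b and Syk, 0.707 for Cd79a and Cd79b, and between -0.49 and 0.03 for Btk with each of the others.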

How the data were processed

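The authors used STAR 2.5.0 with UCSC known genes to align the reads to GRCm38/mm10, and deposited whole-number counts per gene symbol without normalization. They calculated the deposited FPKM values with StringTie 1.3.0. The counting program, its handling of strand, and how FPKM values were combined per symbol are not given in the sources used here. All columns belonged to the 6 libraries, whose conditions and replicate numbers came from the sample labels. The 15 ChIP-seq samples are not analysed here.

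Counts were fitted with edgeR 4.0.16 (R 4.3.3) in 1 model of all 6 libraries without covariate, after filterByExpr (12786 of 24421 genes) and TMM scaling. Genes were called at a quasi-likelihood p below 0.05 after Benjamini-Hochberg adjustment across all genes tested. The SE of a log2 fold change is its size divided by the square root of F. Coordinates are 1-based from GENCODE vM21. Alternatives used DESeq2 1.42.0 and limma 3.58.1; the fits were tested on simulated data. Python 3.11.15 with scipy 1.17.1 computed the permutation tests, which were two-sided in the sense that any spread between conditions counts.

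The members, gene lists, motifs and tests were chosen with earlier results of these data known. Named were all members, up to 8 called genes per list and comparison with the largest change, and the 4 most abundant per list that passed in no comparison; some genes under this rule are not reported here. Depth was 20687092 to 24095955 counts per library, and the common biological coefficient of variation was 0.151 (0.0979 to 0.137 for members), so replicate spread limits precision more than counting does. Replicates are duplicate experiments. Whether they came from separate animals is not given in the sources used here, so p-values measure the spread between these libraries, which may be technical.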

Additional observations from a re-analysis of the deposited data

How the results depend on the processing

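Of 405 recomputed fold changes of members, 352 kept their direction and side of the threshold, 28 no longer passed, 12 newly passed and 13 changed sign. The calls of Vpreb1, Vpreb2, Vpreb3, Cd79a, Cd79b and Syk in C-MYC against EV, and those of Vpreb1, Vpreb2, Vpreb3 and Cd79a in BCR-ABL1 against C-MYC, held under all 15 alternatives. All sign changes were in values that did not pass. Leaving out 1 library in turn, the log2 fold change in BCR-ABL1 against EV ranged from -0.0632 to 0.4441 for Igll1, from -0.0328 to 0.3302 for Vpreb1, from -0.1574 to 0.1796 for Vpreb3 and from -0.2552 to 0.0731 for Blnk, and in C-MYC against EV from -0.0564 to 0.3497 for Btk, with the extremes of each set by leaving out EV replicate 1 or 2. In BCR-ABL1 against EV, Vpreb3 was 0.0170 with DESeq2's size factors, 0.0065 without the low-count filter, 0.0250 with DESeq2's test and 0.0094 with the replicate block. The cause was not tested.

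For BCR-ABL1 against EV, 1 member was called with DESeq2's size factors and in each of the 3 limma fits of log2 FPKM, against 2, since Cd79b then missed the threshold (adjusted p from 0.0522 to 0.103). Regulators called were 9 without the filter, 8 with DESeq2, 3 with limma on all genes with any FPKM above 0 and 11 with the replicate block, against 5. All genes called were 1055 and 1043 with limma at pseudocounts of 1 and 0.1 and 1425 without the FPKM filter, against 2180. For C-MYC against EV, limma without the filter called 10 regulators, against 18. For BCR-ABL1 against C-MYC, that fit called 4 members, against 7, 17 other pathway genes, against 39, 2 regulators, against 8, and 1412 genes, against 2991. Limma with the filter called 4 regulators at either pseudocount, the block 13, and a model of only the 4 libraries compared called 4538 genes.

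Leaving out 1 library in turn, with the lone library assumed to vary like the others, gave 0 to 2 members, 10 to 26 other pathway genes, 2 to 10 regulators and 665 to 2729 genes for BCR-ABL1 against EV. For C-MYC against EV the ranges were 6 to 9, 32 to 46, 6 to 18 and 3329 to 6077, and for BCR-ABL1 against C-MYC 4 to 8, 13 to 44, 2 to 11 and 618 to 4519.

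Replicate numbers are shared by the conditions, but the labels do not say that a number marks a batch. Deviations of same-numbered libraries from their condition means correlated with r of 0.273, 0.236 and 0.204 over 12786 genes. With the number as a block, Igll1 in C-MYC against EV (-0.44, edgeR adjusted p = 0.00635) and Cd79b in BCR-ABL1 against C-MYC (0.47, adjusted p = 0.00365) also passed. Library totals without a scaling factor, chosen after seeing the data, moved the median of all genes in C-MYC against EV from -0.0759 to -0.19, and Igll1 (-0.57, edgeR adjusted p = 0.0260) and, in BCR-ABL1 against C-MYC, Cd79b (0.52, 0.0389) then also passed.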
